A study of Homo sapiens with 16 samples.

Results

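Contractile actin cytoskeleton genes encode the actin, actin-binding and myosin regulatory proteins that let smooth muscle cells and spread, adherent cells pull on their surroundings. The 10 genes described here are ACTA2, TAGLN, CNN1, CNN2, CNN3, MYL9, TPM1, TPM2, TPM4 and CALD1. They were taken from a list of targets of serum response factor (SRF) by their symbol in the platform annotation. That step used no measured value, but the members were chosen with earlier results of these data known. Together they make up 10 of the 18239 genes that the array names. They carry 51 of the 45253 probe sets with a single gene symbol, and all 10 genes were among the 13680 that remained after the dimmest 25% of genes were left out. A further 2 probe sets are annotated to TPM4 together with its pseudogene TPM4P2 and were not counted as members.

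Gene expression had been measured in SK-N-SH, an established human neuroblastoma cell line, on single-colour Human Genome U219 arrays. The 4 groups, with 4 arrays each, were untreated cells and cells given risperidone, an antipsychotic drug, at 10 µM for 6, 24 or 48 h. The labels call the controls untreated, whereas the treatment protocol says that controls received the solvent DMSO, and no harvest time is given for them. All 4 groups were the same line, grown to near confluence before exposure, so the arrays hold whole cultures of this tumour line and no other cell source. SK-N-SH cultures are known to contain neuroblast-like cells and flat, substrate-adherent cells of mesenchymal character. In such bulk RNA, fewer cells of a type and less RNA per cell cannot be told apart.

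In smooth muscle and fibroblasts, SRF binds a DNA element called the CArG box and, with myocardin-related transcription factors (MRTFs), switches on genes of the contractile apparatus. MRTFs are held back by free actin monomers and enter the nucleus when actin assembles into filaments. Among the products, smooth muscle actin and tropomyosins form the filament, transgelin, calponins and caldesmon bind along it, and MYL9 is a regulatory light chain of the myosin that pulls on it.

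Sequences upstream of the transcription start are shown because the list is defined by SRF, whose CArG box can be looked for in them. RefSeq entries on GRCh38.p14 were found for 8 of the 10 genes, in 16 windows that run from 250 bases before to 50 bases after a start. TAGLN and MYL9 had no entry. The windows were searched for the CArG box, which reads the same on both strands. Exact matches were found in 2 of the 16 windows, 1 of CNN2 and 1 of TPM4, against 1.29% of all 35116 windows in the table. With at most 1 mismatch, 7 of the 16 windows had a match, against 18.9% of all windows. By gene, 4 of 8 members had a match with at most 1 mismatch, against 22.3% of all genes in the table. The 250 upstream bases are given 5′ to 3′ on the gene's strand, with exact matches and matches with 1 mismatch in capitals. The CNN2 window on the plus strand at chr19:1026358-1026607 has its exact match 89 bases before the start:
CNN2: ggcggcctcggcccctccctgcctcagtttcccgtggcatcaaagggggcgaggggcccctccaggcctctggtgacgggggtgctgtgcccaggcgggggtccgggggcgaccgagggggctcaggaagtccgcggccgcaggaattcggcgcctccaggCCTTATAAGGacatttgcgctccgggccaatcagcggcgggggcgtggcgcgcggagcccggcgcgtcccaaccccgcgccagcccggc
The first TPM4 window, on the plus strand at chr19:16067288-16067537, has its exact match 173 bases before the start:
TPM4: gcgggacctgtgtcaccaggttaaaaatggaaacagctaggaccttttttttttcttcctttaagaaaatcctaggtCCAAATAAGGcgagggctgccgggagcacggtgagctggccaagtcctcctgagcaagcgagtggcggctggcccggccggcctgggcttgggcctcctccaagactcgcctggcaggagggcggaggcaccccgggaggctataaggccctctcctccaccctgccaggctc
One of the ACTA2 windows, on the minus strand at chr10:88952774-88953023, has matches with 1 mismatch at 121 and 71 bases before the start:
ACTA2: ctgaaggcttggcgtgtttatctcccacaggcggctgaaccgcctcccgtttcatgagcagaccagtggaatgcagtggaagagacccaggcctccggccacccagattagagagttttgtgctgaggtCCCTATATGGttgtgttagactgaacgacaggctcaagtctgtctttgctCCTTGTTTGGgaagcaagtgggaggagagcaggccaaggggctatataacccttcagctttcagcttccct
CNN1 and CNN3, the calponins that did not fall, are shown for comparison with CNN2. The CNN1 window is on the plus strand at chr19:11538601-11538850:
CNN1: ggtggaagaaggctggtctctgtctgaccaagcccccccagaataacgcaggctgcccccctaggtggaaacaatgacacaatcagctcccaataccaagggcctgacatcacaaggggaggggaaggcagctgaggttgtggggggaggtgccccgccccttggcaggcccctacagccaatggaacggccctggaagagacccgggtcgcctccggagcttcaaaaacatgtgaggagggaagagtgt
The second CNN3 window is on the minus strand at chr1:94927111-94927360:
CNN3: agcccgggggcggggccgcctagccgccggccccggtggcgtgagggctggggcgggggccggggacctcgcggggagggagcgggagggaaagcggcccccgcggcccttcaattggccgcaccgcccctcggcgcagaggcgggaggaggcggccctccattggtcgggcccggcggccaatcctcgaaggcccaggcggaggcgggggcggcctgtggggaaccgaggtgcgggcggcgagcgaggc
Neither of these holds a match with at most 1 mismatch, nor do the windows of TPM1 and TPM2, which fell by about 2 log2 units. Of the members that fell, each read by its brightest probe set, TPM4, with an exact match, fell the least. CNN2, also with an exact match, fell the most at 6 h. The only TPM1 window, at chr15:63048239-63048488, lies inside the gene, which starts at chr15:63042747, so the sequence before that start was not searched. Whether a match goes with the size of a fall was not tested. No match says only that these letters are not in these windows. A match is a description of the sequence and not evidence of binding.

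Of the 10 genes, 7 were lower after 6 h of risperidone than in untreated cells (ACTA2, TAGLN, CNN2, TPM1, TPM2, TPM4 and CALD1), where 16.7% of all genes tested were lower. The same 7 genes were lower after 24 h, against 16.9% of all genes, and after 48 h, against 21.0% of all genes. The median log2 change of the 10 genes was -1.28 at 6 h, -1.26 at 24 h and -1.42 at 48 h, and the median over all genes tested was 0.09, 0.09 and 0.08 at those times. CNN1 was higher at 6 h, CNN3 at 24 and 48 h and MYL9 at 48 h, all by less than 0.35, where 36.6%, 35.3% and 36.0% of all genes tested were higher at 6, 24 and 48 h. In the 7 genes that fell, all treated arrays lay under the untreated range at each time, as in 14.8%, 15.2% and 17.8% of all genes at 6, 24 and 48 h. All treated arrays lay over the untreated range in 1, 2 and 2 members at those times, and in 30.9%, 31.1% and 30.0% of all genes. These calls come from limma's moderated test on the deposited log2 values with Benjamini-Hochberg adjustment over the 13680 genes and a threshold of 0.05. All changes below are differences of mean log2 values, treated minus untreated unless other groups are named. The authors' processing had equalised the distributions of the arrays before probes were summarised, so a change in total RNA per cell is not visible. Medians of the deposited arrays still ran from 4.5 to 4.62.

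**Figure D1:**
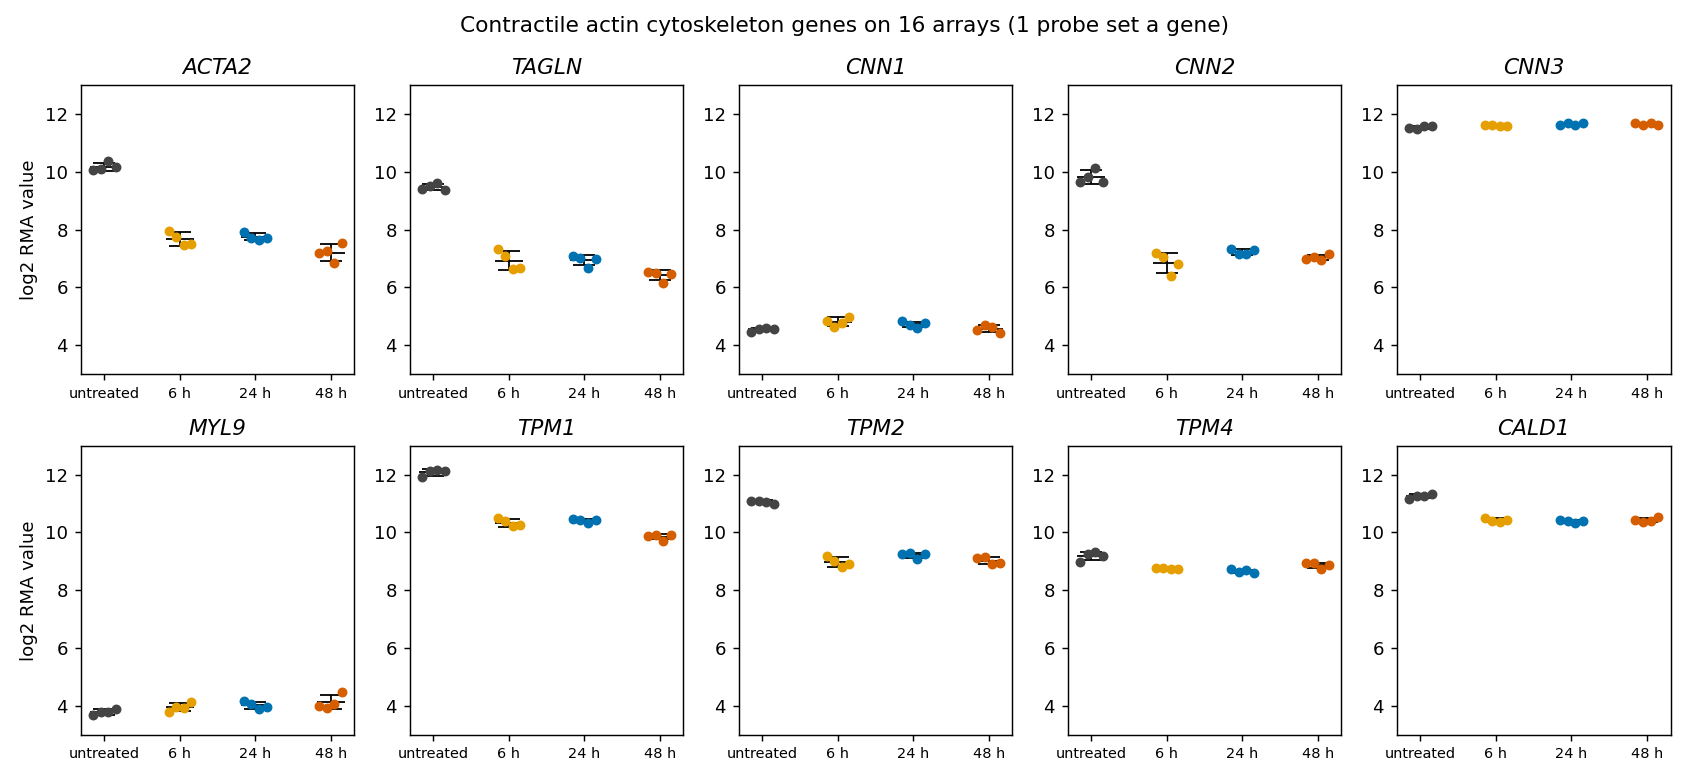
Deposited log2 value of each member's probe set on every array, with untreated cells and 6, 24 and 48 h of risperidone from left to right; points are single arrays (n = 4 a group), dashes are group means and error bars are SDs. In ACTA2, TAGLN, CNN2, TPM1, TPM2, TPM4 and CALD1 no treated array reaches the untreated range, while CNN1, CNN3 and MYL9 stay within a narrow band.

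ACTA2 encodes smooth muscle alpha-actin, and its gene lies at chr10:88935074-88991337 (GRCh38.p14). Its log2 values were 10.05, 10.09, 10.37 and 10.17 on the untreated arrays, 7.96, 7.75, 7.46 and 7.51 at 6 h, 7.92, 7.70, 7.65 and 7.70 at 24 h, and 7.18, 7.27, 6.84 and 7.53 at 48 h. Every treated array lay more than 2 log2 units under the lowest untreated array. The change was -2.50 at 6 h, -2.43 at 24 h and -2.96 at 48 h (SE 0.13 each, n = 4 against 4; adjusted p from limma 4.07e-11 at 6 h), which left 17.7%, 18.6% and 12.8% of the untreated level. The other 2 ACTA2 probe sets had untreated means of 3.64 and 3.65 and did not pass at any of the 3 times.

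TAGLN encodes transgelin, an actin-binding protein also called SM22 alpha that is used as an early marker of smooth muscle, and lies at chr11:117199294-117207465. Its values were 9.39, 9.49, 9.62 and 9.38 in untreated cells, 7.32, 7.09, 6.64 and 6.66 at 6 h, 7.09, 7.02, 6.68 and 6.97 at 24 h, and 6.53, 6.51, 6.16 and 6.45 at 48 h. The treated arrays did not overlap the untreated ones, and the 6 h arrays spread more widely than any other group of this gene. The change was -2.54 at 6 h, -2.53 at 24 h and -3.06 at 48 h (SE 0.13 each; adjusted p from limma 5.71e-11 at 6 h), or 17.2%, 17.3% and 12.0% of the untreated level. All 6 TAGLN probe sets fell at each time, with changes between -2.72 and -2.54 at 6 h and between -3.63 and -3.06 at 48 h. TAGLN and ACTA2 were each other's closest course among the members, with a Pearson correlation of 0.995 over the 16 arrays, a description of points that share arrays and groups.

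The 3 calponins, which bind actin and are named for binding calmodulin, moved apart. CNN2, the calponin of many non-muscle cells, lies at chr19:1026608-1039065. Its values were 9.63, 9.82, 10.14 and 9.64 in untreated cells, 7.18, 7.05, 6.39 and 6.80 at 6 h, 7.33, 7.15, 7.14 and 7.30 at 24 h, and 6.97, 7.04, 6.96 and 7.17 at 48 h. All 12 treated arrays were under the untreated range, with the lowest value on a 6 h array. The change of -2.95 at 6 h (SE 0.14, adjusted p from limma 1.16e-11) was the largest fall of any member at that time, leaving 12.9% of the untreated level. The change was -2.58 at 24 h and -2.77 at 48 h. Of its 9 probe sets 7 fell at 6 h, 6 at 24 h and 6 at 48 h. The 5 with untreated means under 4.1 had 6 h changes between -0.36 and -0.11, much smaller than those of the brighter probe sets.

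CNN1, the calponin of differentiated smooth muscle, had values of 4.47, 4.56, 4.59 and 4.56 in untreated cells, 4.84, 4.62, 4.77 and 4.99 at 6 h, 4.82, 4.70, 4.60 and 4.76 at 24 h, and 4.54, 4.70, 4.63 and 4.41 at 48 h. These are near the dim end of the array, since the filter on dim genes lay at a mean of 3.65. The 6 h arrays were all above the untreated range and the 24 h arrays by a narrow margin too. The 6 h change was 0.26 (SE 0.08, adjusted p from limma 0.00823). At 24 h the change was 0.18 (adjusted p 0.0627), which passed when 6 h replicate 2 or 4, 24 h replicate 3 or 48 h replicate 4 was left out (0.18 to 0.22). At 48 h it was 0.02 (adjusted p 0.798, 95% interval -0.13 to 0.18). The 24 h change also passed with array medians subtracted, with quantile normalization again and with only the 8 arrays compared (0.18 to 0.20). The rise at 6 h rested on 1 probe set: with the probe sets of each gene averaged the change was 0.0019 (adjusted p from limma 0.981), and after cyclic loess scaling it was 0.17 (0.0682). The CNN1 probe sets also disagreed at 6 h, where the brightest of the 4 rose by 0.26 and another fell by 0.39 (adjusted p over all probe sets 0.0134 and 0.00185).

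CNN3, the calponin known from non-muscle tissue including brain, had values of 11.50, 11.48, 11.57 and 11.59 in untreated cells, 11.60, 11.60, 11.58 and 11.58 at 6 h, 11.63, 11.67, 11.63 and 11.70 at 24 h, and 11.68, 11.63, 11.70 and 11.60 at 48 h. The 24 and 48 h arrays were above the untreated range and the 6 h arrays overlapped it. The change was 0.06 at 6 h (adjusted p from limma 0.272), 0.12 at 24 h (0.0181) and 0.12 at 48 h (0.0203), each with an SE of 0.04. With cyclic loess scaling the changes of 0.06 at 24 h and 0.07 at 48 h did not pass (adjusted p 0.207 and 0.136), and neither passed with only the 8 arrays compared (0.0556 and 0.0978) or in the fit over all probe sets (0.0539 and 0.0579). Nor did the 24 h change without untreated replicate 2 or 24 h replicate 4 (0.10 and 0.11), or the 48 h change without untreated replicate 2 or 48 h replicate 1 or 3 (0.10, 0.11 and 0.10). Thus CNN2 was lower by several fold at every time, while neither CNN3 nor CNN1, the second of them read near the floor, passed in that direction as a gene.

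MYL9, the regulatory light chain of smooth muscle and non-muscle myosin, lies at chr20:36541519-36551447 and was read near the floor of the array. Its values were 3.67, 3.80, 3.78 and 3.91 in untreated cells, 3.79, 3.98, 3.93 and 4.13 at 6 h, 4.16, 4.07, 3.89 and 3.95 at 24 h, and 4.01, 3.93, 4.07 and 4.48 at 48 h. The 48 h arrays were above the untreated range, while the 6 and 24 h arrays overlapped it. The change was 0.17 at 6 h (adjusted p from limma 0.184), 0.23 at 24 h (0.0740) and 0.33 at 48 h (0.0107), each with an SE of 0.10. Without 48 h replicate 4, its highest array, the 24 h change of 0.23 passed (adjusted p 0.0184), as it did with array medians subtracted (0.0422) and with only the 8 arrays compared (0.0228). With both probe sets averaged the change passed at 6 h too, at 0.23 (adjusted p from limma 0.0241), and was 0.26 at 24 h (0.0132). The second MYL9 probe set, with an untreated mean of 3.47, rose by 0.30 at 6 h (adjusted p over all probe sets 0.00560).

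Tropomyosins wrap around the actin filament and set which other proteins can reach it. TPM1 lies at chr15:63042747-63071915. Its values were 11.90, 12.13, 12.15 and 12.12 in untreated cells, 10.51, 10.38, 10.21 and 10.24 at 6 h, 10.45, 10.43, 10.32 and 10.44 at 24 h, and 9.87, 9.92, 9.72 and 9.92 at 48 h. The untreated, 6 h and 24 h, and 48 h arrays formed 3 separate bands, with the 48 h band the lowest. The change was -1.74 at 6 h, -1.66 at 24 h and -2.22 at 48 h (SE 0.07 each; adjusted p from limma 1.24e-13 at 48 h), so that 29.9%, 31.5% and 21.5% of the untreated level remained. Of 9 TPM1 probe sets, 7 fell at 6 h and at 48 h. The exceptions were dim, with untreated means of 4.82 and 3.29, and the brighter of these was higher at 48 h than in untreated cells by 0.20 (adjusted p over all probe sets 0.0463).

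TPM2, the beta-tropomyosin of muscle and fibroblasts, lies at chr9:35681993-35690056. Its values were 11.08, 11.10, 11.06 and 10.98 in untreated cells, 9.20, 9.01, 8.81 and 8.92 at 6 h, 9.24, 9.28, 9.09 and 9.24 at 24 h, and 9.11, 9.14, 8.90 and 8.96 at 48 h. Treated arrays lay well under the untreated ones and overlapped one another across the 3 times. The change was -2.07 at 6 h, -1.84 at 24 h and -2.03 at 48 h (SE 0.08 each, adjusted p from limma 5.82e-13 at 6 h), or 23.8%, 27.9% and 24.5% of the untreated level. Of the 4 TPM2 probe sets, 3 fell at 6 h, 3 at 24 h and 2 at 48 h. Another bright one changed by -1.99 at 6 h. The dim ones, with untreated means of 4.24 and 4.735, each changed by -0.25 at 6 h.

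TPM4, a tropomyosin of non-muscle cells, lies at chr19:16067538-16103002 and fell the least of the 7 genes. Its values were 8.98, 9.26, 9.33 and 9.18 in untreated cells, 8.77, 8.76, 8.73 and 8.74 at 6 h, 8.72, 8.63, 8.69 and 8.58 at 24 h, and 8.93, 8.94, 8.74 and 8.86 at 48 h. Every treated array was still under the lowest untreated array, at 48 h only narrowly. The change was -0.44 at 6 h, -0.53 at 24 h and -0.32 at 48 h (SE 0.07 each; adjusted p from limma 2.89e-05, 3.23e-06 and 0.000481). The other 2 TPM4 probe sets followed other courses. One had changes of -0.37, -0.79 and -0.73 at the 3 times. It was lower at 24 h than at 6 h, with a difference of -0.42 (adjusted p over all probe sets 0.00470), and differed by 0.06 between 48 and 24 h (0.703). The other had changes of -0.47, -0.43 and -0.18 and did not pass at 48 h (0.0668). The 2 probe sets shared with TPM4P2 had means of 9.30 and 10.66 in untreated cells, 8.84 and 10.20 at 6 h, 8.93 and 10.18 at 24 h, and 9.10 and 10.46 at 48 h. Signals of the gene and its pseudogene cannot be told apart there.

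CALD1 encodes caldesmon, which binds actin, tropomyosin and myosin, and lies at chr7:134711499-134970729. Its values were 11.16, 11.26, 11.25 and 11.32 in untreated cells, 10.51, 10.38, 10.37 and 10.44 at 6 h, 10.44, 10.41, 10.31 and 10.40 at 24 h, and 10.42, 10.37, 10.41 and 10.52 at 48 h. The treated groups overlapped one another and none reached the untreated range. The change was -0.82 at 6 h, -0.86 at 24 h and -0.82 at 48 h (SE 0.05 each; adjusted p from limma 4.04e-10 at 6 h), which left 56.5%, 55.2% and 56.7% of the untreated level.

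**Figure D2:**
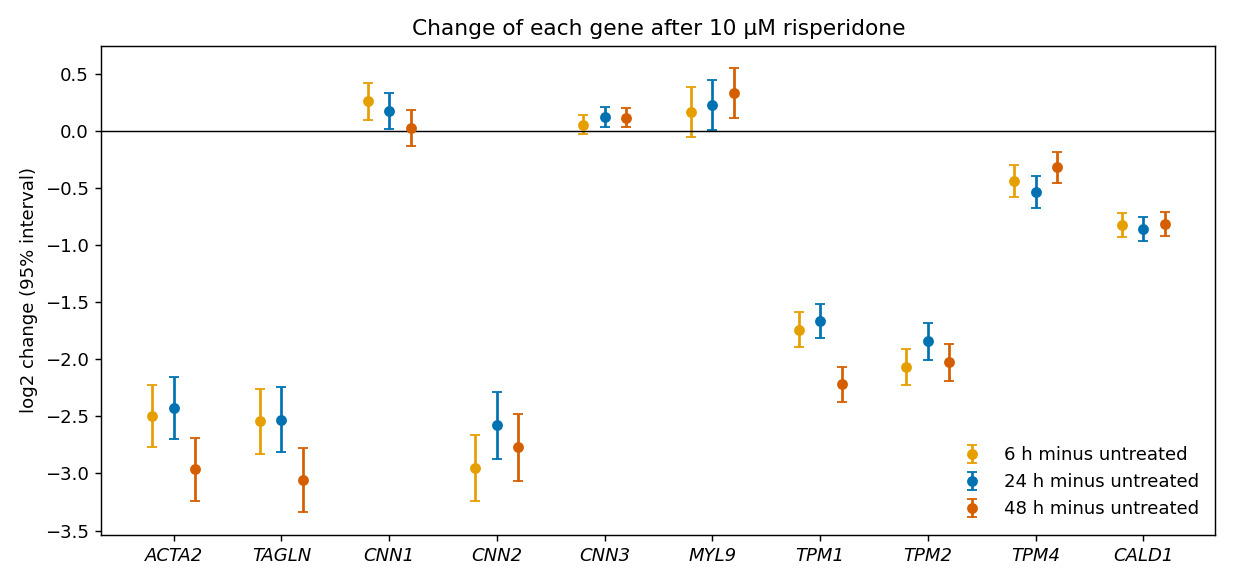
Mean log2 change from untreated cells for each of the 10 genes after 6, 24 and 48 h of risperidone, with 95% intervals from the fit over all 16 arrays (n = 4 a group). CNN2, TAGLN, ACTA2, TPM2 and TPM1 lie between -3.06 and -1.66, CALD1 near -0.8, TPM4 near -0.4, and CNN1, CNN3 and MYL9 between 0.02 and 0.33.

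The probe sets of CALD1 followed different courses between 6 and 24 h, which the probe set standing for the gene did not show. All 10 fell at 6, 24 and 48 h against untreated cells, with median changes of -0.92, -1.46 and -1.20. At 24 h the 10 changes lay between -1.70 and -0.85. The probe set standing for the gene had the smallest fall of them at 6 h. At 24 h, 7 of the 10 were lower than at 6 h, by changes between -0.66 and -0.46 (adjusted p over all probe sets between 5.17e-06 and 0.00119), where 0.977% of all probe sets were lower. Of those 7, 5 were then higher at 48 h than at 24 h, and the 7 changes lay between 0.20 and 0.28. Over all probe sets 8.66% were higher. The 7 were picked by low values on the 24 h arrays, which this comparison uses again. That choice favours a rise after 24 h, so the share of all probe sets is not a fair reference here. The other 3, among them the brightest, changed by -0.04 to 0.06 between 6 and 24 h and did not pass. As an example, the one with the smallest adjusted p averaged 8.24 ± 0.03 in untreated cells, 7.31 ± 0.06 at 6 h, 6.66 ± 0.12 at 24 h and 6.95 ± 0.07 at 48 h (SD, n = 4 each). The test between exposure times on single probe sets was added after these courses had been seen, and which transcripts the probe sets read is not analysed here.

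**Figure D3:**
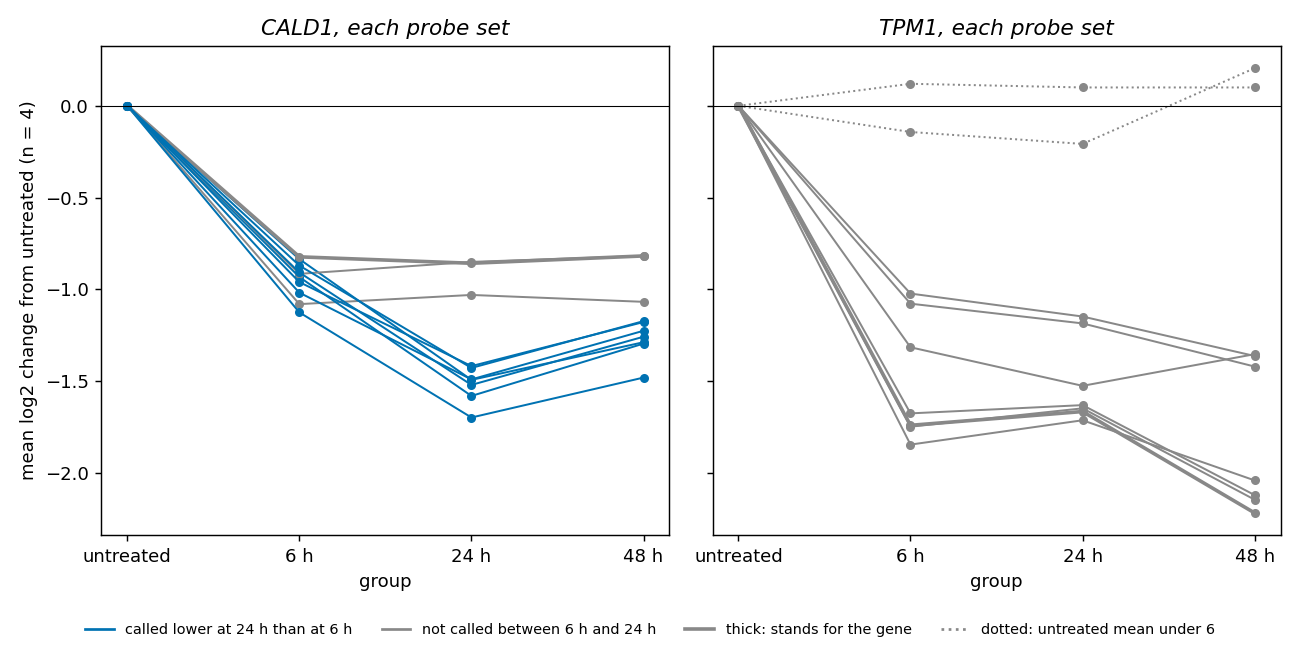
Mean log2 change from untreated cells (n = 4 arrays a group) of each CALD1 and each TPM1 probe set at untreated, 6, 24 and 48 h; the thick line is the probe set standing for the gene and dotted lines have an untreated mean under 6. The 7 blue CALD1 lines are lower at 24 h than at 6 h, while the other 3 stay level; 7 TPM1 lines fall together and the 2 dotted ones stay near 0.

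Over all 51 member probe sets, 38 fell and 2 rose at 6 h, where 11.7% of all probe sets fell and 22.0% rose. At 24 h 38 fell and 1 rose, against 12.2% and 21.2% of all probe sets, and at 48 h 35 fell and 3 rose, against 14.9% and 23.5%. The probe sets that did not pass lay mostly at untreated means near the floor, as in ACTA2 and CNN2. Probe sets of a gene share its transcripts and are not independent of one another.

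**Figure D4:**
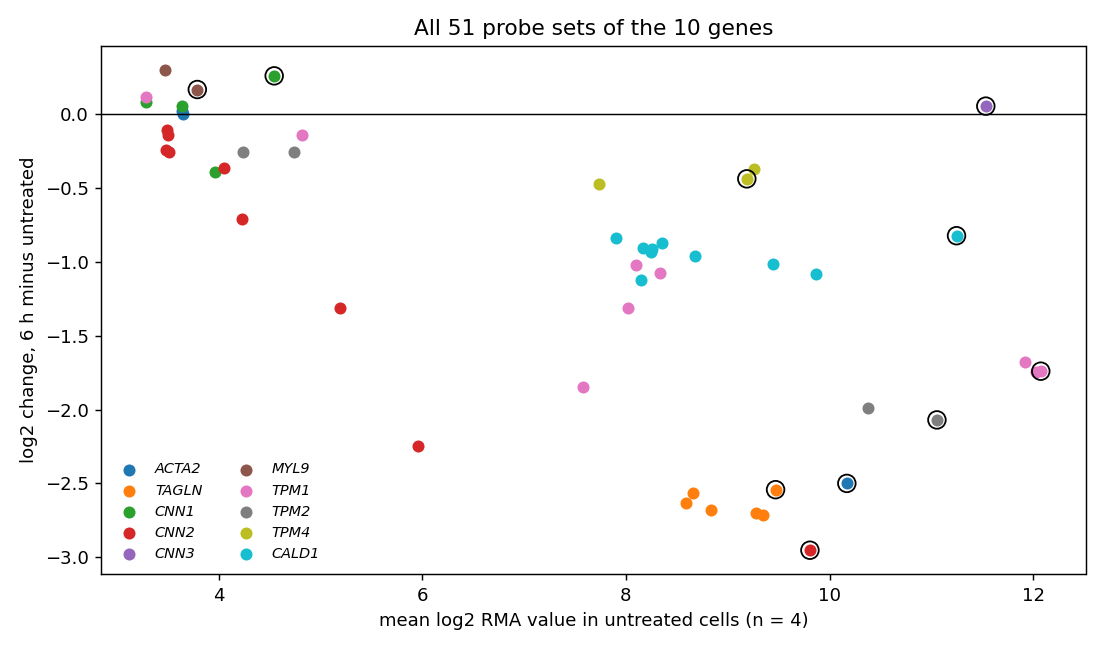
Log2 change after 6 h of risperidone against the mean log2 value in untreated cells for each of the 51 member probe sets, in a colour for each gene, with a black ring on the probe set standing for the gene. Probe sets with a high untreated mean of ACTA2, TAGLN, CNN2, TPM1 and TPM2 lie low on the plot, and those with an untreated mean near 3.5 lie near 0.

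Paralogues can be compared within an array, where scaling of the whole array cancels. The difference of 2 log2 values was taken on each array and its change from untreated was tested by an exact two-sided permutation test over the 70 arrangements of 4 and 4 arrays, whose smallest possible p is 0.0286. Of 18 such tests, 6 pairs at 3 times, 14 passed after Benjamini-Hochberg adjustment over the 18, each at an adjusted p of 0.0367. CNN1 changed by 3.21, 2.75 and 2.80 relative to CNN2 at 6, 24 and 48 h, and CNN2 changed by -3.01, -2.70 and -2.89 relative to CNN3. The first of these mostly restates the fall of CNN2, since CNN1, with an untreated mean of 4.54, lay too near the floor to show a fall of that size. TPM1 changed by -1.30, -1.13 and -1.90 relative to TPM4, and TPM2 by -1.63, -1.31 and -1.71 relative to TPM4, with all 4 treated arrays on 1 side of all 4 untreated arrays in each case. TPM1 fell less than TPM2 at 6 h, by 0.33, and at 24 h, by 0.18, and the difference was -0.19 at 48 h (exact permutation adjusted p 0.0964). The difference at 24 h missed the threshold without untreated replicate 1 or without any single 24 h array (0.11 to 0.19). The order also depended on the probe sets, since values averaged over all probe sets of each gene gave -0.0193 at 6 h and -0.12 at 24 h, which did not pass (exact permutation adjusted p 0.800 and 0.0964), and -0.34 at 48 h, which did (0.0343). The changes of CNN1 and CNN3 differed by 0.20, 0.05 and -0.09 at the 3 times, and none of these passed (exact permutation adjusted p 0.0964, 0.457 and 0.212). With probe sets averaged the difference was -0.14 at 24 h, of the opposite sign, and -0.23 at 48 h, and both passed (exact permutation adjusted p 0.0343 each). Without replicate 2 of the treated group the 6 h difference was 0.27 and the 48 h difference -0.14, and both passed.

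**Figure D5:**
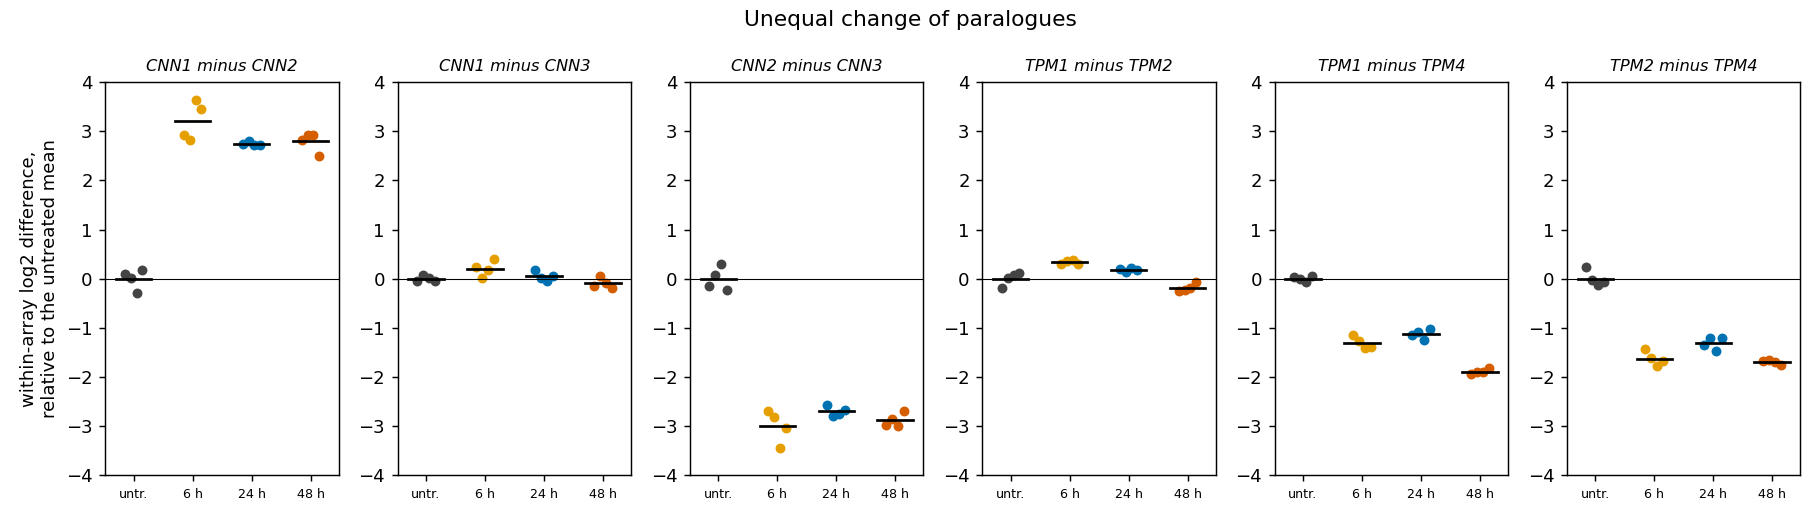
Within-array differences of log2 values for the calponin and tropomyosin pairs on each array, relative to the mean of the untreated arrays (points, n = 4 a group; black lines are group means), with untreated cells and 6, 24 and 48 h from left to right. CNN1 minus CNN2 moves up in treated cells, whereas CNN2 minus CNN3, TPM1 minus TPM4 and TPM2 minus TPM4 move down, with no overlap of treated and untreated arrays.

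Between exposure times, the fall was largely in place at 6 h. From 6 to 24 h no member passed limma's test on the probe set standing for each gene, where 2.40% of all genes did. Of the 10, 2 had an unadjusted p under 0.05, as had 13.9% of all genes. These were CNN2 with a change of 0.38 (adjusted p 0.210) and TPM2 with 0.23 (adjusted p 0.155). Without 6 h replicate 1 the TPM2 change was 0.30 and passed (adjusted p 0.0313). With the probe sets of each gene averaged, CALD1 changed by -0.39 from 6 to 24 h (adjusted p from limma 2.33e-05). It then changed by 0.18 from 24 to 48 h (0.00313), and by -0.21 from 6 to 48 h (0.000563). From 24 to 48 h, 3 members fell further, against 15.1% of all genes: ACTA2 with a change of -0.54 (SE 0.13, adjusted p from limma 0.00470), TAGLN with -0.53 (SE 0.13, 0.00708) and TPM1 with -0.55 (SE 0.07, 3.13e-05). TPM4 was higher at 48 h than at 24 h by 0.21 (SE 0.07, adjusted p 0.0224), against 13.5% of all genes. All 6 TAGLN probe sets were lower at 48 h than at 24 h, against 8.21% of all probe sets. Compared with 6 h, 4 members were lower at 48 h, against 17.0% of all genes, with changes of -0.46 for ACTA2, -0.52 for TAGLN, -0.48 for TPM1 and -0.24 for CNN1 (adjusted p 0.0102, 0.00700, 9.17e-05 and 0.0237). CNN2 differed between 48 and 24 h by -0.20 and TPM2 by -0.18, neither past the threshold (adjusted p 0.327 and 0.0782). The TPM2 difference passed with eBayes trend and robust options (0.0352), with the dimmer 50% of genes left out (0.0499), with the replicate block (0.0261) and without 6 h replicate 1 (0.0408), and the CNN2 difference with only the 8 arrays compared (0.0468). The TPM4 rise missed the threshold when 24 h replicate 2 or 4 or 48 h replicate 1 or 2 was left out, with changes between 0.19 and 0.20 and adjusted p between 0.0547 and 0.0691. The CNN1 difference was -0.11 with probe sets averaged (adjusted p 0.133). It was also not past the threshold with only the 8 arrays compared (adjusted p 0.0612), or without 6 h replicate 1 or 4 or 48 h replicate 1 or 4 (-0.22 to -0.17).

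Other genes of the pathway were read from lists of regulators, adhesion proteins and late markers. SRF itself had mean log2 values of 7.70 in untreated cells, 7.74 at 6 h, 7.67 at 24 h and 7.81 at 48 h, and its change did not pass at any time (adjusted p from limma between 0.295 and 0.789). MRTFA averaged 6.02 at 6 h, against 6.04 in untreated cells (adjusted p 0.924), and MRTFB changed by -0.20 at 6 h, -0.34 after 24 h and -0.40 after 48 h (adjusted p 0.0140 at 6 h). ELK3, a ternary complex factor that partners SRF, fell by 1.16 on the log2 scale at 6 h, and ELK1, of the same family, rose by 0.31. In the list of SRF and its cofactors as a whole, 2 of 6 tested genes fell and 1 rose at 6 h, with a median change of -0.06. Of all genes tested, 16.7% fell and 36.6% rose at 6 h, with a median of 0.09. MYOCD, myocardin, was too dim to be tested.

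Of other actins, cross-linkers and focal adhesion proteins, 17 of 21 tested fell and 2 rose at 6 h, with a median of -0.62. Over all genes tested 16.7% fell and 36.6% rose at that time. ZYX, zyxin of focal adhesions, fell by 2.20 and FHL2, a LIM-domain cofactor, by 1.77, whereas TES, testin, rose by 0.80 and PDLIM7 by 0.18. At 48 h 15 of the 21 were lower, against 21.0% of all genes tested. Of late smooth muscle markers, 2 of 6 tested genes fell at 6 h, against 16.7% of all genes, SMTN by 0.48 and SYNPO2 by 0.31. At 48 h 3 of 6 fell, against 21.0% of all genes, SYNPO2 by 0.83. SYNM, with an untreated mean of 8.935, changed by 0.075 at 6 h and -0.07 at 24 h. Neither change passed (adjusted p from limma 0.345 and 0.397), while the change of -0.225 at 48 h did (0.00617). DES, with an untreated mean of 4.68, did not pass at any of the 3 times. LMOD1 and LDB3, with untreated means of 3.72 and 3.96, were read too near the floor to show a large fall, and MYH11, ACTG2 and KCNMB1 had means over all 16 arrays under the filter on dim genes.

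The falls moved together with the markers of mesenchymal, substrate-adherent neuroblastoma cells. Of 15 tested markers, 13 fell at 6 h, 14 at 24 h and 14 at 48 h, with a median change of -1.41, -1.54 and -1.76. Over all genes tested 16.7%, 16.9% and 21.0% fell at those times. PRRX1, a transcription factor of the mesenchymal state, fell by 5.10 at 6 h and YAP1, a coactivator in adherent cells, by 4.17. The log2 of the summed level of the 15 markers was 14.78 to 14.89 in untreated cells, 13.58 to 13.72 at 6 h, 13.66 to 13.71 at 24 h and 13.68 to 13.79 at 48 h, and TWIST1, named after its values were seen, was the 1 marker that was higher at 48 h. PRRX1 had a mean of 3.98 at 6 h, near the dim threshold, against 9.07 in untreated cells. On the 6 h arrays the mean of the mesenchymal markers was 6.93, 6.80, 6.60 and 6.68 in replicates 1 to 4. ACTA2, TAGLN, CNN2 and TPM1 also had their highest 6 h value on replicate 1 and their lowest on replicate 3. At 24 h the marker mean was highest on replicate 2 (6.89), but these genes were highest on replicate 1, and both were lowest on replicate 3. At 48 h the marker mean was lowest on replicate 1 (6.58), but these genes were lowest on replicate 3. The marker mean and the mean of the 7 members that fell were both highest on replicate 4 at 48 h (6.75 and 8.49). In untreated cells both means were lowest on replicate 1 (8.71 and 10.31) and highest on replicate 3 (8.92 and 10.56). Markers of adrenergic neuroblasts went the other way, with 10 of 11 tested higher at 6 h and a median change of 0.29. Over all genes tested 36.6% were higher at 6 h, with a median of 0.09. The log2 of the summed level of the adrenergic markers was 15.15 to 15.20 at 6 h, against 14.78 to 14.82 in untreated cells. DBH and DDC, enzymes of catecholamine synthesis, rose by 1.16 and 0.76 (adjusted p from limma 1.77e-10 and 1.08e-10). The part of such a shift in the changes of the contractile genes was not tested.

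Within groups, the members that fell were correlated to differing degrees. After the group means were removed, the correlation over the 16 arrays ran from 0.24 to 0.88 among the pairs of these 7 genes. It was highest between TAGLN and TPM2 and was 0.79 between ACTA2 and TAGLN, against 0.24 for TPM4 with CALD1, 0.24 for TPM2 with CALD1 and 0.25 for TPM2 with TPM4. MYL9, which did not fall, had a correlation of 0.59 with CALD1, and these values are descriptions of values that share arrays. The gene with the highest correlation to each member over the 16 arrays, where the group differences dominate, was MMP3 for ACTA2 (0.995), CAV1 for CNN2 (0.996), TUBB6 for TPM1 (0.997), ANXA2 for TPM2 (0.996), RNH1 for TPM4 (0.956) and CREB3L1 for CALD1 (0.993). For the members that did not fall these were MARCKSL1 for CNN1 (0.863), EIF4E2 for CNN3 (0.906) and ASB1 for MYL9 (0.936).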

How the data were processed

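Expression was measured in SK-N-SH cells on 16 Human Genome U219 arrays, 4 in each of 4 groups that the labels give. The authors deposited log2 values for each probe set, made by robust multi-array average (RMA) per the submitters' processing notes; that method subtracts background, equalises the distributions of the arrays and summarises the probes. The RMA software used was not given in the sources used here. Precision is limited by the number of arrays. The labels call the replicates biological; where they share a culture, p-values measure only the spread between these samples.

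Of 49386 rows, 45253 probe sets had a single symbol in the platform annotation, and 1327 had several and were not used. For each gene the probe set with the highest mean over 16 arrays was taken, and genes in the dimmest 25% by that mean were dropped. The 4 groups were fitted together with limma 3.58.1 in R 4.3.3 (lmFit, eBayes), two-sided, with Benjamini-Hochberg adjustment within each contrast. A second fit covered every single-symbol probe set without a filter. Data were also simulated for 13680 genes and the 6 h contrast. There 66% of 1.25-fold, 96% of 1.5-fold and 100% of 2-fold changes were recovered, with 17 false calls among 198. Far fewer genes were changed in the simulation than the 7291 called at 6 h in the data. The shares recovered therefore hold for the simulated setting only.

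All 10 members and their probe sets are named, and from each other list the genes called at 6 h with the 2 largest rises and falls, beside SRF, MRTFA and MRTFB. The result of 1 other list is not reported here. Members and lists were chosen with earlier results of these data known. Same-numbered replicates were checked for pairing: of 24 pairs, with correlations of deviations from -0.15 to 0.18, 8 exceeded 0.1, so the numbers were not used as pairs. Sequences are from RefSeq (GRCh38.p14). The alternatives tried were averaging all probe sets of a gene, testing probe sets singly, other filters on dim genes, 3 other scalings, other eBayes options, a replicate block, only the 8 arrays compared, and leaving out each array.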

Additional observations from a re-analysis of the deposited data

Results flagged for a closer look

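Of 40 groups of 4 arrays (10 genes by 4 groups), 2 held an array far from its group by Dixon's criterion, both in TPM1: 24 h replicate 3 at 10.32, under the other 24 h arrays, and untreated replicate 1 at 11.9, under the other untreated arrays. Chance marks about 1 in 20 groups in this way.

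The change from untreated differed between exposure times for several members. Between 48 and 24 h it differed by -0.54 for ACTA2, -0.53 for TAGLN, -0.55 for TPM1 and 0.21 for TPM4. Between 48 and 6 h it differed by -0.46 for ACTA2, -0.52 for TAGLN, -0.24 for CNN1 and -0.48 for TPM1. For CALD1 the change from untreated was more negative at 24 h than at 6 h in 7 of its 10 probe sets, with differences of -0.66, -0.65, -0.61, -0.57, -0.56, -0.47 and -0.46. Passing limma's test between the exposure times was the rule by which these differences were listed.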

How the results depend on the processing

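The 7 members lower than untreated stayed lower, past the threshold, at each time under every alternative run. Where probe sets were tested singly, this covers only the probe set standing for each gene, and some others did not pass, such as 1 of TPM4 at 48 h. The other results depended on the setting as follows, and the cause was not tested. With values averaged over all probe sets of a gene, the 1 member higher at 6 h was MYL9 in place of CNN1. CALD1 between 48 and 6 h was -0.21 against 0.00, and it was the 1 member lower from 6 to 24 h (-0.39). Against untreated cells 2 members were higher at 24 h, and from 24 to 48 h 2 were higher, CALD1 among them (0.18). The paralogue differences of TPM1 and TPM2 were then -0.0193 and -0.12 at 6 and 24 h and -0.34 at 48 h. Those of CNN1 and CNN3 were -0.14 and -0.23 at 24 and 48 h. With every probe set tested by itself, 15241, 15095 and 17390 were called at 6, 24 and 48 h against untreated, 791 between 24 and 6 h, 7635 between 48 and 24 h and 9711 between 48 and 6 h, and 0 members were higher at 24 h and 1 at 48 h. With the dimmer 50% of genes left out, 0 were higher at 6 h and 1 at 48 h. With array medians subtracted, 3 members and 3 member probe sets were higher at 24 h, and with quantile normalization again 2 and 2. With cyclic loess 0, 0 and 1 members were higher at 6, 24 and 48 h and 1 member probe set at 6 h, and rises made up 49.4% of calls at 6 h, against 68.7% as deposited. With only the 8 arrays compared, 2 were higher at 24 h and 1 at 48 h.

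Leaving out 1 array at a time, members higher numbered 0 to 3 at 24 h and 1 to 2 at 48 h, 0 to 1 from 6 to 24 h and 0 to 1 from 24 to 48 h. Member probe sets higher numbered 1 to 2 at 6 h, 1 to 3 at 24 h and 1 to 3 at 48 h. Genes called between 24 and 6 h numbered 163 to 378, against 329 with all arrays. The paralogue difference of TPM1 and TPM2 at 24 h was 0.11 to 0.22, and that of CNN1 and CNN3 was 0.14 to 0.27 at 6 h and -0.14 to -0.0567 at 48 h. With the replicate block, the 48 h minus 24 h change of TPM2 of -0.18 passed (adjusted p 0.0261), and no other member call changed; the numbers are not shown to pair the arrays.

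Values near 3.5 are close to the floor of the array, so changes of MYL9, CNN1 and the dim probe sets of ACTA2 and CNN2 have low resolution. Total RNA per cell cannot be seen on equalised arrays, and the untreated cells have no stated harvest time.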

Other observations

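Markers of other cell types were read as well. Of 5 tested pericyte markers, 2 rose and 1 fell at 6 h: KCNJ8 rose by 1.06, RGS5 by 0.12 and MCAM fell by 0.52, where 36.6% of all genes tested rose and 16.7% fell, while CSPG4 and ABCC9 were too dim to be tested. Of 3 tested Schwann cell and glial markers, S100B rose by 0.60 and MBP fell by 1.86 at 6 h, and SOX10 averaged 3.82 at 6 h against 3.74 in untreated cells. Of 4 tested endothelial markers, KDR rose by 0.21 at 6 h from a mean near the floor.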
